A study of Mus musculus with 6 samples.

Results

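The 7 connexin genes measured in skin wounds here were Gja1, Gja4, Gja5, Gjb2, Gjb5, Gjb6 and Gjc1, taken as members of the Gja and Gjb families together with Gjc1. They were found on the array through 8 probes whose RefSeq accession maps to one of these symbols, out of 55681 probes, and all 7 genes passed the filter on dim probes among the 16400 genes tested. RNA came from dorsal skin wounds of male C57/BL6 mice, with 3 wild type (WT) and 3 FoxO1 +/- samples. FoxO1 +/- mice carry 1 disrupted copy of the forkhead factor gene Foxo1. The labels do not say how that allele was made or how old the mice were. In each mouse 4 full-thickness wounds were cut with a 4 mm punch, and tissue was taken with a 6 mm punch on day 3, so a sample holds the wound bed and the skin around it. Each sample was hybridised to a 1-colour Agilent array. The sample titles number the replicates within a genotype without saying whether each is 1 animal or how wounds were pooled. A p-value here thus sets the genotype difference against the scatter of arrays within a genotype, which may be partly technical.

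Connexins are membrane proteins that assemble into hemichannels. Hemichannels of neighbouring cells dock to form gap junctions, which let ions and small metabolites pass from cell to cell. In the epidermis several connexins are expressed in layers, and in wounds they are known to shift, with Cx43 falling at the wound edge and Cx26 and Cx30 rising in migrating and hyperproliferative keratinocytes. In vessels, Cx37 and Cx40 couple arterial endothelial cells and Cx45 is found in smooth muscle.

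Levels are log2 processed signals, from which the 75th percentile of the array's non-control probes was subtracted, so a level of 0 equals that percentile and a step of 1 is a doubling. A level depends on the probe as well as on the transcript, so levels are compared between arrays for 1 gene and not between genes. Between 64.3% and 71.9% of spots were well above background, and the 75th percentile of the signal ran from 899 on FoxO1 +/- replicate 3 to 1299 on WT replicate 3. The mean of 9 basal keratinocyte genes lay between 3.94 and 4.48 on the 6 arrays, above the 75th percentile of the array throughout, and all 9 were measured. Both Foxo1 probes gave lower values in every FoxO1 +/- wound than in every WT wound. The brighter one differed by -0.48 on the log2 scale (SE 0.14, limma adjusted p 0.649), and the other -0.89 (SE 0.14, limma adjusted p 0.190 over probes). Whether they lie inside the altered stretch of Foxo1 is unknown.

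Gja1, Gjb2 and Gjb6 carry the results below. Gja1 is the gene whose genotypes did not overlap. Gjb2 and Gjb6 are neighbours on chromosome 14 and were both lowest on FoxO1 +/- replicate 2. Whether their position bears on their levels was not tested. The 250 bases before the annotated starts of Gja1, Gjb2 and Gjb6 are printed from RefSeq (GRCm38.p6), 5′ to 3′ on the strand of the gene. Capitals mark matches, on either strand, to 4 motifs that do not overlap in these windows. GGGCGG was taken as the GC box. TGANTCA was taken as the AP-1 motif. TATAAA was taken as the TATA box. GTAAACA was taken as the forkhead motif, the site of the family to which FoxO1 belongs.
Gja1, chr10:56377050-56377299, plus strand: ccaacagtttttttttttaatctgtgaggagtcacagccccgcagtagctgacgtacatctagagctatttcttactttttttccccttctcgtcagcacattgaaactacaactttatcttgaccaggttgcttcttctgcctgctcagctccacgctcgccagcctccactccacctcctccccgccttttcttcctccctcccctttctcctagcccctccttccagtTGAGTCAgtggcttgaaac
Gjb2, chr14:57104703-57104952, minus strand: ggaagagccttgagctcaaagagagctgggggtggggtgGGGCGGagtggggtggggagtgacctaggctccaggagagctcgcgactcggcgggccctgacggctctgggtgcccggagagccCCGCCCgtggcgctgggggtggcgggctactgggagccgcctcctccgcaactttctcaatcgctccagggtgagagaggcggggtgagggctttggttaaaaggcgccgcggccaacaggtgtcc
Gjb6, chr14:57133612-57133861, minus strand: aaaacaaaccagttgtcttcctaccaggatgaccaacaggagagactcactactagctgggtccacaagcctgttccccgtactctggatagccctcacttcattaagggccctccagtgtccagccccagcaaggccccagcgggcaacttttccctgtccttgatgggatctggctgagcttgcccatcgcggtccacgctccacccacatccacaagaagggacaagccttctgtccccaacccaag
The Gja1 window held 1 AP-1 match, TGAGTCA, from 19 to 13 bases before the start, and none of the other motifs. An AP-1 match was present in 6.75% of 32851 mouse promoter windows of that length. The Gjb2 window held 2 GC boxes and had a GC content of 69.2%, whereas the Gjb6 window held none of the 4 motifs and had a GC content of 56.8%, against a median of 52.4% over all windows. At least 1 GC box was present in 32.7% of all windows, and at least 2 in 16.7%. Of the 6 members with a promoter sequence, Gja4 and Gja5 also held 1 GC box each and Gjb5 held 1 TATA box match, which lay 243 to 238 bases before the start. A forkhead match was found in 0 of the 6 windows and in 3.17% of all windows. These matches describe letters, and no binding was measured.

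**Figure D1:**
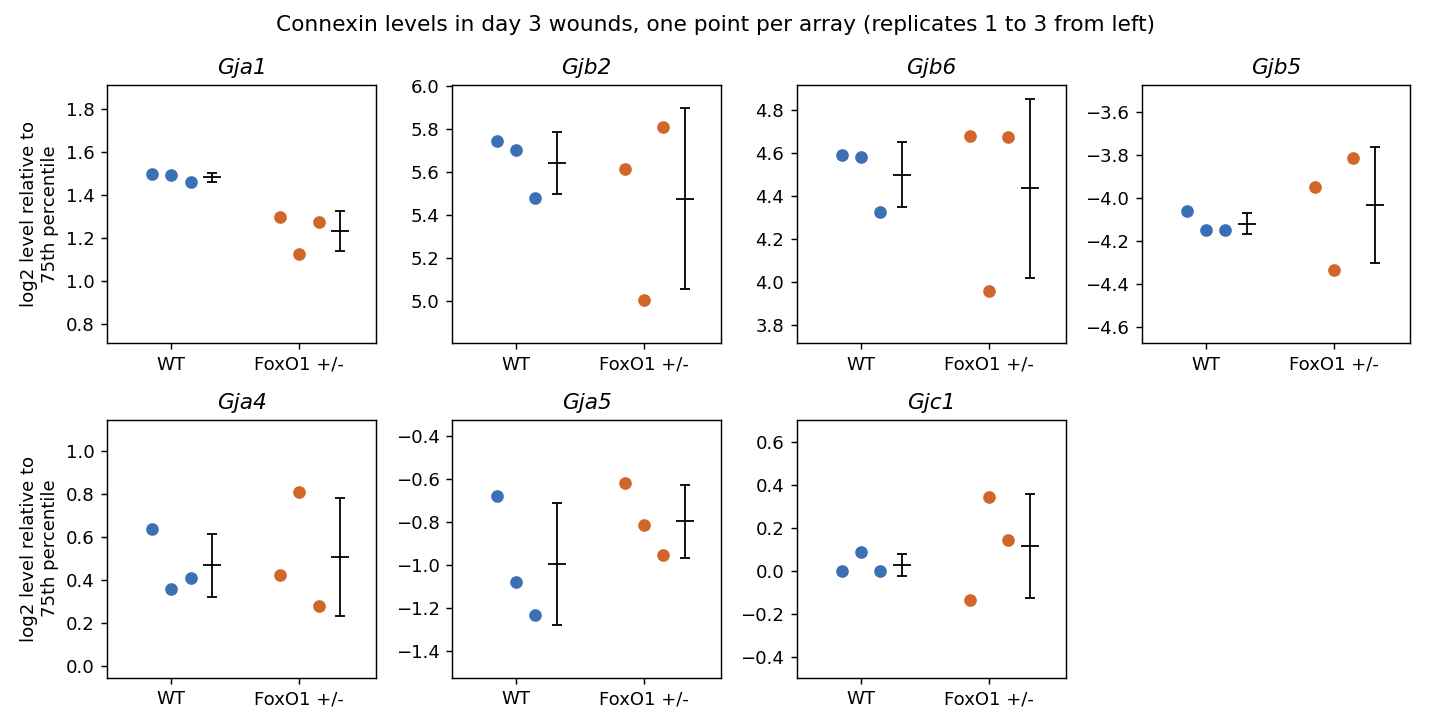
Levels of the 7 connexins on each array, as log2 signal relative to the array's 75th percentile, with 1 point per array (blue WT, orange FoxO1 +/-) and the mean ± SD (n = 3) in black; every panel spans the same log2 range of 1.2. The Gja1 points of the genotypes do not overlap, and FoxO1 +/- replicate 2 is the lowest point for Gja1, Gjb2, Gjb5 and Gjb6.

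Of the 7 connexins, Gja1 alone had genotypes that did not overlap. Gja1 encodes Cx43, the most widely expressed connexin, present in keratinocytes, fibroblasts and vessel cells. Its level was 1.50, 1.49 and 1.46 in WT wounds and 1.30, 1.12 and 1.27 in FoxO1 +/- wounds. All 3 FoxO1 +/- values lay below all 3 WT values, and the WT values lay close together. WT wounds averaged 1.48 ± 0.021 (SD, n = 3) and FoxO1 +/- wounds 1.23 ± 0.094 (SD, n = 3). The genotypes thus differed by -0.25 (SE 0.076) on the log2 scale, with a 95% interval of -0.44 to -0.066, which puts FoxO1 +/- wounds at 0.840 of the WT level. The difference did not pass limma's adjustment over genes (adjusted p 0.649, unadjusted p 0.0158), and the exact two-sided permutation p was 0.1, the smallest that 3 arrays against 3 allow. Groups lay apart in this way for 11.5% of all genes tested, and with the FoxO1 +/- wounds lower for 4.57%, so a count of 1 among 7 members is not read as a result about the connexins.

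The Gja1 probe is printed 10 times on the array, which gives a measure of technical error that the other members lack. No spot was flagged. Among the 10 spots of an array the signal varied by a coefficient of variation of 2.50% to 4.58%. Before scaling, the WT spots ran from 3116 to 3822 and the FoxO1 +/- spots from 2074 to 2816, which did not overlap. The array's 75th percentile was lower on the FoxO1 +/- arrays too, at 899 to 1118 against 1150 to 1299 on the WT arrays. After scaling, the lowest WT spot, at 1.34 on WT replicate 3, lay just below the highest FoxO1 +/- spots, at 1.36 on replicate 1 and 1.35 on replicate 3. The spot SD of 0.036 to 0.066 on the log2 scale is smaller than the genotype difference of 0.25, but spots of an array share 1 RNA sample and are not replicates of a genotype.

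**Figure D2:**
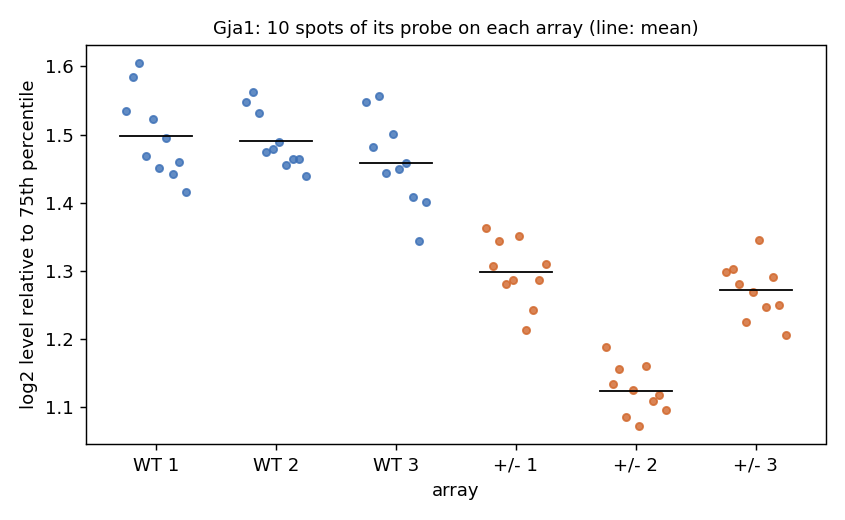
Level of each of the 10 Gja1 spots on each array (log2 signal relative to the 75th percentile), WT in blue and FoxO1 +/- in orange, with the array mean as a line. The spots of FoxO1 +/- replicate 2 lie between 1.07 and 1.19, below every other array, and the WT spots lie between 1.34 and 1.61.

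Marker lists of several other cell types had different values in the genotypes beside Gja1. The mean of 11 sebaceous gland genes was 2.0, 1.55 and 2.37 in WT and 1.27, 1.21 and 1.00 in FoxO1 +/- wounds, with 10 of 11 members lower. The mean of 14 endothelial genes was 1.40, 1.33 and 1.50 in WT and 1.51, 1.66 and 1.67 in FoxO1 +/- wounds, with 14 of 14 higher, and 10 of 10 adipocyte genes were also higher, with list means of 2.31 to 3.20 in WT and 3.36 to 3.73 in FoxO1 +/- wounds. The 10 fibroblast genes, whose cells make much of the Cx43 of granulation tissue, had list means of 5.81 to 5.87 in WT and 5.84 to 5.90 in FoxO1 +/- wounds, which overlapped. Over the 6 arrays Gja1 had a Pearson's r of 0.74 with the sebaceous mean, -0.86 with the endothelial mean and -0.76 with the fibroblast mean. Without FoxO1 +/- replicate 2 and WT replicate 1 these were 0.75, -0.83 and -0.34. With the mean of 11 wound-edge keratinocyte genes Gja1 had an r of 0.47, and -0.27 without the same arrays. Gja1 and the sebaceous and endothelial means each lay apart by genotype, so an r over both genotypes in part restates that difference. The 12 measured hair follicle genes were all lower in the heterozygotes (median -1.55 on the log2 scale), but their list mean was 0.49 on WT replicate 1 against -3.70 to -2.54 on the other 5 arrays. Of 6 melanocyte genes 4 were lower and 2 higher, with a median of -0.88. Their list means were -0.60 to 0.39 in WT and -0.93 to -0.46 in FoxO1 +/- wounds, which overlapped. No member of these lists passed 0.05 adjusted over all genes. The part of these cell types in the Gja1 difference was not tested, and in tissue samples fewer cells of a type and less RNA per cell cannot be told apart.

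The epidermal beta connexins Gjb2 and Gjb6 did not separate the genotypes, and 1 FoxO1 +/- wound stood below the other 5 for both. Gjb2 encodes Cx26, which is scarce in resting mouse back skin and is induced in wound-edge keratinocytes. Its level was 5.74, 5.70 and 5.48 in WT and 5.62, 5.0 and 5.81 in FoxO1 +/- wounds. FoxO1 +/- replicate 2 was the lowest array and FoxO1 +/- replicate 3 the highest, so the FoxO1 +/- range enclosed the WT range. The probe was bright, with signals of 35883 to 62912, and no spot of it was marked as saturated. The log2 difference was -0.17 (SE 0.22, limma adjusted p 0.975), with a 95% interval of -0.69 to 0.36, that is, from 0.618 to 1.28 of the WT level. Without FoxO1 +/- replicate 2 it was 0.070.

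Gjb6 encodes Cx30, a partner of Cx26 in mixed channels, and its human counterpart is mutated in a hereditary disease of hair and nails. Its level was 4.59, 4.58 and 4.32 in WT and 4.68, 3.95 and 4.67 in FoxO1 +/- wounds. As for Gjb2, FoxO1 +/- replicate 2 was the lowest array, and here the other FoxO1 +/- wounds were the highest of the 6. The log2 difference was -0.063 (SE 0.22, limma adjusted p 0.995), with a 95% interval of -0.59 to 0.46, and it was 0.18 without FoxO1 +/- replicate 2.

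Gjb2 and Gjb6 were both lowest on FoxO1 +/- replicate 2 and next lowest on WT replicate 3. Pearson's r between them was 0.96 over the 6 arrays (Spearman's rho 0.66), a description of arrays that share a slide and a scaling. With FoxO1 +/- replicate 2 and WT replicate 3 both left out, the arrays farthest from the Gjb2 median, r was -0.070. The difference Gjb2 minus Gjb6 within an array, which does not depend on the scaling, was 1.15, 1.13 and 1.16 in WT and 0.94, 1.05 and 1.13 in FoxO1 +/- wounds. Across all 6 arrays this difference spanned 0.21, against 0.81 for Gjb2 and 0.72 for Gjb6 alone. Its mean was lower by a log2 value of -0.10 in FoxO1 +/- wounds (exact two-sided permutation p 0.2, adjusted p 0.6 over 3 pairs), and the genotypes overlapped.

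The mean of the wound-edge keratinocyte genes varied over the arrays in nearly the same order as Gjb2, though not every gene of the list did. The mean of the 11 genes was 5.56, 5.70 and 5.29 in WT and 5.43, 5.04 and 5.79 in FoxO1 +/- wounds. It was highest on FoxO1 +/- replicate 3 and lowest on FoxO1 +/- replicate 2, as for Gjb2. Pearson's r with this mean over the 6 arrays was 0.93 for Gjb2 (Spearman's rho 0.94), and 0.84 without FoxO1 +/- replicate 2 and WT replicate 3. For Gjb6 it was 0.87 (Spearman's rho 0.60), and -0.10 without the same arrays. The means of the other keratinocyte lists had the same lowest array, though not every gene did. On FoxO1 +/- replicate 2 the mean of 9 basal genes was 3.94 and that of 11 suprabasal and cornified genes 3.02. The suprabasal mean was nearly as low on WT replicate 2, at 3.05. All basal genes but Krt15 and Dst were lowest on FoxO1 +/- replicate 2. Of the suprabasal genes only Sbsn, Tgm1, Dsg1a and Dsc1 were, and Krt10, Lor and Flg2 were lowest on WT replicate 2. The suprabasal mean was highest on FoxO1 +/- replicate 3 (3.39), as for Gjb2, and the basal mean on WT replicate 1 (4.48). The share of wound-edge or other epidermis in each sample was not measured, and its part in the Gjb2 and Gjb6 levels was not tested.

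Gjb5 encodes Cx31.1, a connexin of rodent epidermis and other stratified epithelia. Its probe was dim, with signals of 55.5 to 73.3, but it was well above background on all 6 arrays. The level was -4.06, -4.15 and -4.15 in WT and -3.95, -4.33 and -3.81 in FoxO1 +/- wounds. The WT values sat between the FoxO1 +/- values, with FoxO1 +/- replicate 2 the lowest and replicate 3 the highest, the same extremes as for Gjb2. The log2 difference was 0.086 (SE 0.14, limma adjusted p 0.989), with a 95% interval of -0.26 to 0.43, and without FoxO1 +/- replicate 3 it was -0.023. Pearson's r between Gjb5 and Gjb6 was 0.86 over the 6 arrays, and 0.72 without FoxO1 +/- replicates 2 and 3. With the mean of the wound-edge keratinocyte genes Gjb5 had an r of 0.76, and -0.14 without the same arrays.

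**Figure D3:**
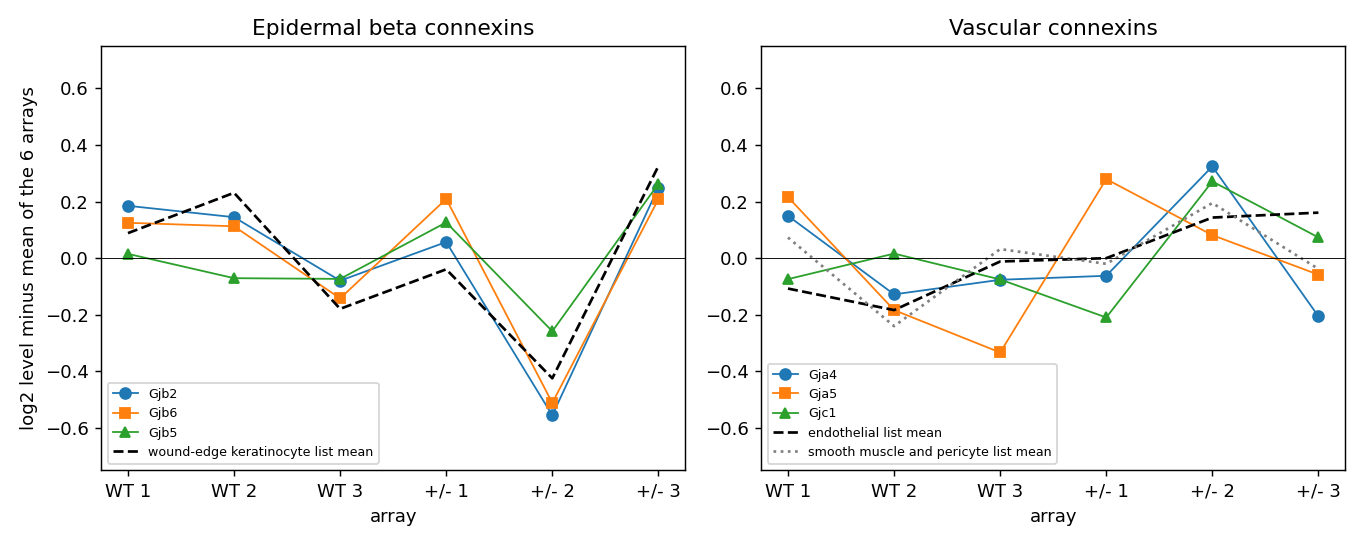
Levels on each array minus the gene's or list's mean over the 6 arrays (log2). The left panel shows Gjb2, Gjb6 and Gjb5 with the mean of 11 wound-edge keratinocyte genes (dashed), all lowest on FoxO1 +/- replicate 2. The right panel shows Gja4, Gja5 and Gjc1 with the means of 14 endothelial genes (dashed) and 12 smooth muscle and pericyte genes (dotted). Arrays are marked WT or +/- with the replicate number.

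The vascular connexins did not separate the genotypes. Gja4 encodes Cx37, which couples endothelial cells of arteries. Its level was 0.63, 0.36 and 0.41 in WT and 0.42, 0.81 and 0.28 in FoxO1 +/- wounds. FoxO1 +/- replicates 2 and 3 were the highest and lowest of the 6 arrays. The log2 difference was 0.037 (SE 0.16, limma adjusted p 0.995), with a 95% interval of -0.35 to 0.42. Without FoxO1 +/- replicate 2 it was -0.12 and without WT replicate 2 -0.018.

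Gja5 encodes Cx40, the other connexin of arterial endothelium, also known from the conduction system of the heart. Its brighter probe gave levels of -0.68, -1.08 and -1.23 in WT and -0.62, -0.81 and -0.95 in FoxO1 +/- wounds. WT replicate 1 lay among the FoxO1 +/- values, and the other WT wounds were the lowest of the 6. The log2 difference was 0.20 (SE 0.17, limma adjusted p 0.924), with a 95% interval of -0.20 to 0.61. It was 0.36 without WT replicate 1 (limma adjusted p 0.867), 0.085 without WT replicate 3 and 0.11 without FoxO1 +/- replicate 1. On all 6 arrays the second Gja5 probe stayed in the background range (not well above background), with signals of 9.62 to 22.5, and was not used.

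The arterial pair Gja4 and Gja5 was compared within arrays too. Gja4 minus Gja5 was 1.31, 1.44 and 1.64 in WT and 1.04, 1.62 and 1.23 in FoxO1 +/- wounds, spanning 0.60, with a genotype difference of -0.16 (exact two-sided permutation p 0.4, adjusted p 0.6 over 3 pairs). Pearson's r between the genes was 0.44 over the 6 arrays (Spearman's rho 0.54), and 0.17 without FoxO1 +/- replicate 2 and WT replicate 1. The other pair compared, Gja1 minus Gjb2, differed between genotypes by -0.085 (exact two-sided permutation p 0.8, adjusted p 0.8). Beside them, all 14 endothelial genes had higher values in FoxO1 +/- wounds, 4 of them at an unadjusted p under 0.05, with a median of 0.20. Over all genes 53.7% had higher values and 6.26% an unadjusted p under 0.05. Of 8 arterial genes 5 were higher and 3 lower, with a median of 0.056. The endothelial mean had a Pearson's r of 0.16 with Gja4 and 0.10 with Gja5 over the 6 arrays. Without FoxO1 +/- replicate 2 and WT replicate 1 the Gja4 value was -0.47. Without WT replicate 3 and FoxO1 +/- replicate 1 the Gja5 value was 0.14. With the arterial mean r was 0.59 for Gja4 and 0.18 for Gja5, and 0.33 and 0.997 without the same arrays. The part of vessel content in either gene was not tested.

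Gjc1 encodes Cx45, known from vascular smooth muscle and the developing heart. Its level was 0.00, 0.09 and 0.00 in WT and -0.14, 0.34 and 0.14 in FoxO1 +/- wounds, so the 3 WT values lay between the FoxO1 +/- values. The log2 difference was 0.089 (SE 0.13, limma adjusted p 0.982), with a 95% interval of -0.23 to 0.41, and without FoxO1 +/- replicate 2 it was -0.024. The 12 smooth muscle and pericyte genes had list means of 1.60 to 1.92 in WT and 1.80 to 2.04 in FoxO1 +/- wounds. Over the 6 arrays Gjc1 had a Pearson's r of 0.36 with this mean (Spearman's rho 0.14), and -0.56 without FoxO1 +/- replicates 1 and 2. Gja4 had an r of 0.78 with it (Spearman's rho 0.89), and 0.25 without FoxO1 +/- replicate 2 and WT replicate 1.

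Across the members, 0 of 7 passed a limma adjusted p of 0.05 and 1, Gja1, had an unadjusted p under 0.05. Over all 16400 genes, 0.0061% passed the adjusted threshold and 6.26% the unadjusted one, with 2.83% lower in FoxO1 +/- wounds. At the probe level 0 of the 7 kept member probes passed, against 0.0238% of all kept probes. The 95% intervals of the other 6 members include 0 and reach well to either side of it, so these p-values do not show equal levels. FoxO1 +/- replicate 2 was the lowest array for Gja1, Gjb2, Gjb5 and Gjb6 and the highest for Gja4 and Gjc1. The WT wounds varied less than the FoxO1 +/- wounds for 6 members, with WT SDs of 0.021 to 0.15 against FoxO1 +/- SDs of 0.094 to 0.42. Gja5 went the other way, with 0.28 in WT and 0.17 in FoxO1 +/- wounds, and no test of these spreads was made.

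All 6 arrays came from 1 slide, where FoxO1 +/- replicates 2 and 3 lay in row 2 and the other arrays, all 3 WT among them, in row 1. With slide row as a block, and within row 1, the difference therefore rests on FoxO1 +/- replicate 1 alone, which is assumed to vary like the others. It was then -0.18 for Gja1, -0.026 for Gjb2, 0.18 for Gjb6, 0.17 for Gjb5, -0.044 for Gja4, 0.38 for Gja5 and -0.17 for Gjc1. The direction for Gjb6, Gja4 and Gjc1 was thus the opposite of that over all 6 arrays, and the Gja5 value was larger by over 1.5 times. The smallest unadjusted limma p among these values was 0.161 with the block, for Gja5.

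**Figure D4:**
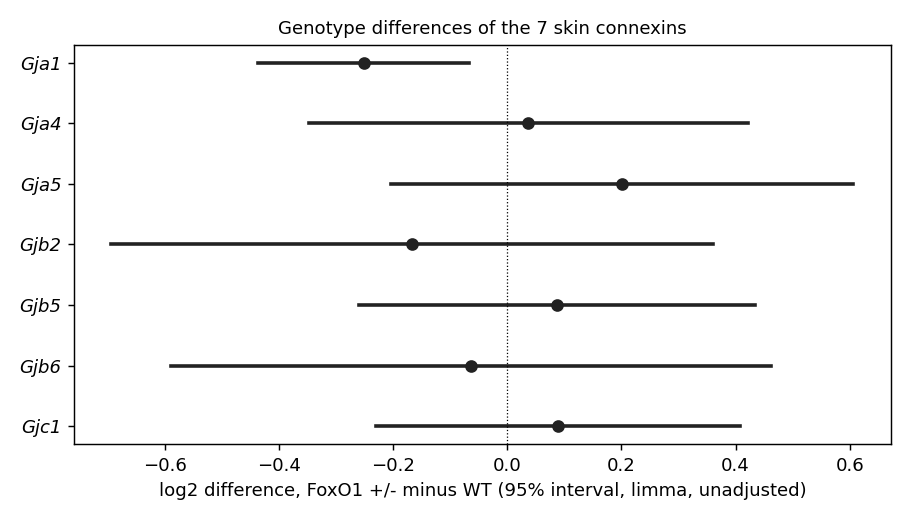
Log2 differences between genotypes (FoxO1 +/- minus WT) with 95% limma intervals, unadjusted, for the 7 skin connexins. The interval of Gja1, from -0.44 to -0.066, is the one that does not include 0.

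Of 13 other mouse connexin genes on the array, 10 passed the filter, while Gja6, Gjd2 and Gje1 stayed below that mark on all 6 arrays. By limma, 0 passed an adjusted p of 0.05 and 0 an unadjusted one, and 4 had higher and 6 lower values, with a median log2 difference of -0.088 against 0.011 over all genes. Among them, Gja3 differed by 0.091 (SE 0.25) and Gja10 by -0.087 (SE 0.24) on the log2 scale, both from dim probes; those of Gja10 and Gjd4 were above background on 2 of the 3 FoxO1 +/- arrays. Gjb1, which encodes the connexin of liver and myelinating Schwann cells, differed by -0.090 (SE 0.10). Gjc3 differed by -0.091 (SE 0.096), Gjd3 by 0.094 (SE 0.087) and Gjd4 by 0.038 (SE 0.25). The Gjd3 and Gjd4 probes were also dim, with signals of 44.9 to 56.5 and 26.7 to 55.0.

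Of 32 genes for gap junction partners, regulators and pannexins, 30 were measured, with 11 higher and 19 lower, a median log2 difference of -0.014 and 0 past a limma adjusted p of 0.05. At an unadjusted p under 0.05 there were 3, where 6.26% of all genes lay. The genotypes did not overlap for Panx3, Cdh5 and Ctnnb1, 3 of the 30, against 11.5% of all genes. Panx3, a pannexin channel gene of cartilage, bone and skin, was at -1.61, -1.76 and -0.75 in WT and -2.31, -2.34 and -3.36 in FoxO1 +/- wounds (log2 difference -1.29, SE 0.38, limma adjusted p 0.649). Cdh5, the endothelial cadherin gene, was at 2.09, 1.88 and 2.06 in WT and 2.25, 2.40 and 2.15 in FoxO1 +/- wounds (log2 difference 0.26, SE 0.10, limma adjusted p 0.797). Cav1, the caveolin gene, had overlapping genotypes that differed by 0.29 on the log2 scale (SE 0.12, limma adjusted p 0.797). Cav2 differed by 0.20 (SE 0.13) and the kinase gene Mapk7 by 0.13 (SE 0.084). Among lower values, Cdh1, the epithelial cadherin gene, differed by -0.41 (SE 0.20) and the beta-catenin gene Ctnnb1 by -0.12 (SE 0.075). Like Gjb2, Cdh1 was lowest on FoxO1 +/- replicate 2, at 1.34 against 1.83 to 2.39 on the other arrays.

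The genes whose levels followed each member most closely over the 6 arrays were found among 8199 genes that varied at least as much as the median gene. With so few arrays many genes reach a high r: between 21 and 89 genes exceeded 0.9 for a member. For Gja1 the closest were Lpcat2b and Aknad1 (r 0.99 each) and Tdpoz2 (0.98). For Gjb2 they were Ube2dnl2 and Pgbd1 (0.99 each) and Wasf1 (0.98), and for Gjb6 9530059O14Rik and Olfr170 (0.99 each) and Mmp1b (0.98). Gjb5 was followed by Prcp (0.99), Nxpe2 (0.98) and Gm4850 (0.96), and Gja4 by Dok4 (0.98), Zg16 and Angpt4 (0.96 each). Gja5 was followed by Fam72a (0.98), Exoc3l (0.97) and Msln (0.96), and Gjc1 by Msl3l2 (0.99), Klk14 (0.97) and Fhl5 (0.96). No member was among the 3 closest genes of another member.

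**Figure D5:**
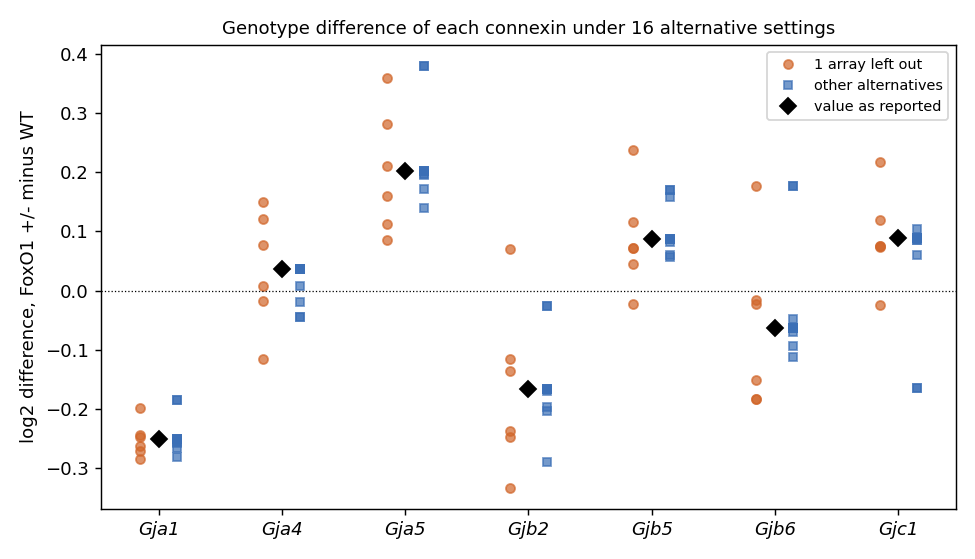
Log2 difference between genotypes for each connexin as reported (black diamonds), with 1 array left out (orange circles) and under the 10 other alternative settings (blue squares). Every Gja1 value lies below 0, between -0.28 and -0.18, and every Gja5 value above 0. The other 5 members have values on both sides. Since the Gja1 genotypes do not overlap, leaving out 1 array cannot turn its sign, and several other settings leave its value unchanged.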

How the data were processed

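Each array's deposited scanner table gives a linear intensity for every spot, which the authors made with Agilent Feature Extraction 10.7.1.1, per the file headers (the submitters' processing notes name 9.1). The processed signal has had background and a spatial trend removed, per the file headers. The authors' deposited value table holds the same intensity rounded, within 0.6% for all 59305 non-control spots. Flags for outlier, saturated and well-above-background spots were used as deposited, and no non-control spot was saturated.

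Processed signals were converted to log2, unflagged spots of a probe averaged, and each array's 75th percentile subtracted. Symbols came from unversioned RefSeq accessions (26582 of 55681 probes). Probes were kept (37888) where all 3 arrays of either genotype were well above background, and the brightest kept probe stood for a gene. FoxO1 +/- minus WT was tested with limma 3.58.1 in R 4.3.3 (lmFit and eBayes, two-sided, 3 arrays per group), with Benjamini-Hochberg adjustment over 16400 genes, and the fit was tested on simulated data. The number of arrays limits the precision. Members, gene lists and named genes (all members, the other connexins that passed the filter, the 4 partner genes of smallest p in each direction, the 3 genes of highest r for each member) were chosen with earlier results of these data known. Some genes that this rule names are not reported here. Arrays were not treated as paired by replicate number. Correlations of same-numbered deviations were -0.30 to -0.067. With 3 arrays per genotype these cannot show whether same-numbered samples were matched.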

Additional observations from a re-analysis of the deposited data

How the results depend on the processing

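In each of 16 alternatives 0 of 7 members and 0 of their probes passed a limma adjusted p of 0.05, and the Gja1 difference ran from -0.28 to -0.18 (lowest adjusted p 0.488, highest 1.00). Directions of other members turned: Gja4 was -0.019 with normexp background correction and -0.044 both with a slide row block and within row 1, where Gjb6 was 0.18 and Gjc1 -0.17. With 1 array left out, Gja4 ran from -0.12 to 0.15, Gjb2 from -0.33 to 0.070, Gjb6 from -0.18 to 0.18, Gjb5 from -0.023 to 0.24 and Gjc1 from -0.024 to 0.22. Gja5 kept its sign but ran from 0.085 to 0.36. Gja1 could not change sign with 1 array left out, since its genotypes do not overlap. The pair Gja1 minus Gjb2 was 0.032 with quantile normalization and ran from -0.27 to 0.061 without single arrays. The median of the other connexins was 0.081 with normexp, 0.024 without a filter on dim probes, which adds 3 dim genes, -0.012 with the slide row block or within row 1, and -0.13 to -0.021 without single arrays. The partner median was -0.047 with quantile normalization and -0.055 to 0.014 without single arrays. The number of genes called, 1 as reported, was 0 with normexp, 2 with quantile normalization, 5 with median scaling, 3 without the filter, 0 where a probe had to be above background on all 6 arrays, 7 with the slide row block, 5 within row 1, 0 with the replicate block and 0 to 28 without single arrays (28 without WT replicate 2). Causes were not tested. With the replicate block Gja1 differed by -0.25 (unadjusted p 0.0534), and no call on a member changed. Normexp was run on the median spot signal, since the planned mean signal is not a column of the files used here; that choice was made after seeing the data.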
